A study of Triticum dicoccoides with 12 samples.

Results

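Y12-3 and A24-39 are genotypes of wild emmer (Triticum turgidum subsp. dicoccoides), and their roots were compared after water had been withheld for 7 days. The comparison holds 6 of the 12 arrays, 3 stressed arrays per genotype. It is Y12-3 minus A24-39 for each of the 61179 probe sets of the Affymetrix wheat array whose names do not begin with AFFX, out of 61290 in the table. All plants were 4 weeks old and grown in a greenhouse, and the stress began at the 4 leaf stage. The other 6 arrays, 3 per genotype, held roots of well-watered plants of the same age. They helped to estimate the spread and served as a second comparison of the genotypes. Replicates are labelled as biological, without stating if RNA was pooled over plants.

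Roots meet drying soil first, and their growth and wall loosening, hydraulic conductance and protective proteins such as dehydrins are known to respond to water deficit. Wild emmer is the tetraploid progenitor of domesticated wheats and is used as a source of drought resistance. In breeding work Y12-3 has been described as resistant and A24-39 as susceptible to drought. A probe set reads 1 transcript, or several related ones, through several short probes. This array was designed from wheat transcripts in general rather than from these genotypes. A low signal can therefore mean less RNA or a poorer match of the transcript to the probes. Which of these held for any probe set below was not tested. In whole roots, fewer cells of a type and less RNA per cell cannot be told apart either.

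The deposited units look logarithmic, with no base stated. If nothing was rescaled after the logarithm, 1 unit is a ratio of 2.72 on a natural log and of 2 on a log2 reading. Detection was judged on each array against the brightest of 23 control probe sets with no wheat target, called the bound here. The bound lay between -0.20 and -0.13 on the 6 stressed arrays. Between 36.8% and 41.8% of the tested probe sets were above it, 39.8% ± 1.91 in Y12-3 and 38.0% ± 1.32 in A24-39 (SD, n = 3 each; exact two-sided permutation p = 0.3). A probe set above the bound on all 3 arrays of one genotype and on none of the other is called Y12-3-only or A24-39-only. One above it on all 6 arrays can differ in degree. The third well-watered Y12-3 array stood apart with 47.8% of probe sets above its bound, against 33.0% to 39.4% on the other 5 well-watered arrays. No 2 arrays held identical values.

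Stressed roots of the genotypes differed at 5180 probe sets, 8.47% of those tested (limma, Benjamini-Hochberg adjusted p under 0.05 over all 61179). Of these, 3103 (5.07%) were higher and 2077 (3.39%) lower in Y12-3. Most differences were small. The median size was 0.33 units, 3775 calls (72.9%) were under 0.5, 365 (0.597% of those tested) reached 1 unit and 39 reached 2. The calls of at least 1 unit were split evenly, with 185 higher and 180 lower in Y12-3. The 3 arrays of each genotype did not overlap at 5169 of the calls, against 38.4% of all probe sets tested. Without the third well-watered Y12-3 array, which enters only through the estimate of the spread, 7387 probe sets were called. The count also depended on single stressed arrays. It was 3402, 3382 and 3096 without the first, the second and the third Y12-3 array, and 3015 and 2984 without the first and second A24-39 array. Without the third A24-39 array it was 4138.

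By detection, 583 calls were Y12-3-only, 321 were A24-39-only and 2516 differed in degree. A further 848 were above the bound on some arrays of a genotype but not in an all-or-none pattern, and 912 were above it on no array. Being detected in one genotype alone requires a difference, so the counts of the one-genotype classes are not themselves a test. Y12-3 had more one-genotype signals, but they were the fainter ones. Of the Y12-3-only calls 34 reached 1 unit and the largest was 1.46. Of the A24-39-only calls 48 reached 1 unit and the largest was 3.07. The median size was 0.40 for Y12-3-only and 0.52 for A24-39-only. Many were close to the limit of detection. The detected genotype's array closest to the bound was less than 0.1 unit above it for 216 of the 583 and 107 of the 321. That array was at least 1 unit above it for 5 and 19. The counts moved with the definition of detection. With the second brightest control as the bound 210 calls were A24-39-only, and with the median plus 3 MAD of the controls 154 were. With group means set against 1 common bound, the highest group mean of any control over the 4 groups, 890 were Y12-3-only.

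The genotype difference changed direction with signal level. For all tested probe sets, grouped by the mean of the 6 stressed arrays in steps chosen after the data were seen, the median of Y12-3 minus A24-39 was -0.04 at -0.2 or less (n = 35654) and 0.03 between -0.2 and 0.5 (n = 14683). It was 0.09 between 0.5 and 1.5 (n = 6749) and 0.02 between 1.5 and 2.5 (n = 2675). It fell to -0.18 between 2.5 and 4 (n = 1277) and -0.49 over 4 (n = 141), where 97.2% of probe sets were lower in Y12-3. The middle levels thus leaned to Y12-3 and the brightest signals to A24-39. Each stressed Y12-3 array showed this: over 4, its median difference from the A24-39 mean was -0.46, -0.63 and -0.42. Calls followed the same course, with 808 higher and 329 lower between 0.5 and 1.5, 17 higher and 160 lower between 2.5 and 4, and 0 higher and 25 lower over 4. After quantile normalization, which gives all arrays 1 distribution, the 2 highest steps had medians of 0.00 and -0.01, with 64 higher and 70 lower and 5 higher and 3 lower calls. In well-watered roots the medians of the 2 highest steps were -0.09 and -0.24.

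**Figure D1:**
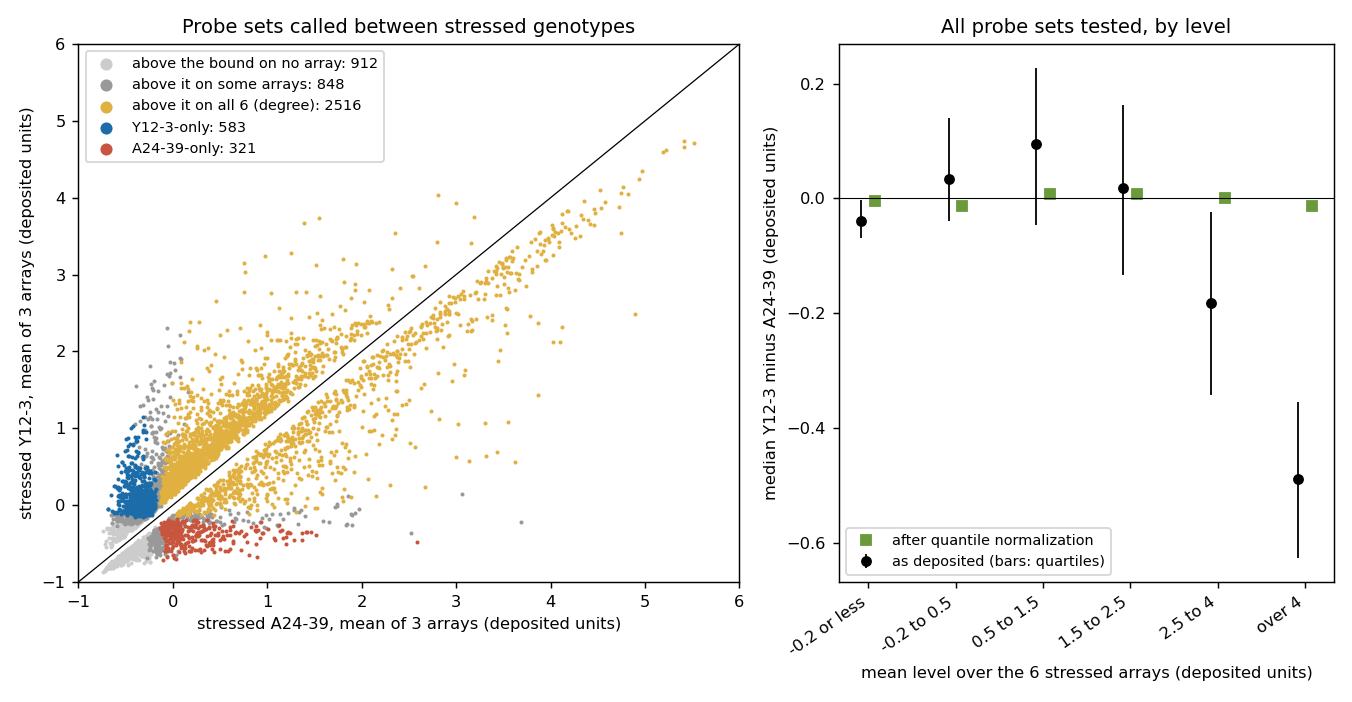
Left, the 5180 called probe sets by their mean signal in stressed A24-39 (x axis) and stressed Y12-3 (y axis, deposited log-like units), coloured by detection class, with the line of equal signal. Right, the median of Y12-3 minus A24-39 over all tested probe sets in 6 steps of mean level, as deposited (black, bars are quartiles) and after quantile normalization (green); as deposited it falls to -0.49 over a level of 4.

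Measures of the arrays moved with genotype in the same samples. The 27 hybridisation control probe sets, which report spiked material and no wheat RNA, averaged 2.21, 2.05 and 2.20 on the stressed Y12-3 arrays and 2.69, 2.45 and 2.67 on the stressed A24-39 arrays. The groups do not overlap, and the means were 2.16 ± 0.09 and 2.60 ± 0.13 (SD, n = 3 each; exact two-sided permutation p = 0.1, the smallest possible here). The hybridisation control signals were thus lower on the Y12-3 arrays, as the bright wheat signals were. Their part in the lower bright signals of Y12-3 was not tested. As an alternative, each array was rescaled along a straight line that brought its hybridisation controls to their mean over the arrays. This step can move signals by different amounts at different levels. The median difference of all probe sets rose by 0.14, and 9275 probe sets were called higher and 479 lower in Y12-3. The split of directions, 59.9% higher as deposited and 95.1% higher after the rescaling, is therefore not fixed by these data. Of the 5180 calls 4860 kept their sign, and of the 847 degree calls lower in Y12-3, 587 did.

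The one-genotype signals were mostly called under quantile normalization as well. After it, 318 of the 321 A24-39-only and 537 of the 583 Y12-3-only probe sets remained called. Of the differences of degree, 1073 of 1669 higher and 715 of 847 lower in Y12-3 did. Among the 185 that were lower in Y12-3 at levels over 2.5, 73 remained and the median moved from -0.52 to -0.25. All 17 that were higher in Y12-3 at those levels remained. After rescaling to the hybridisation controls, 171 calls were A24-39-only and 655 Y12-3-only.

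The clearest A24-39-only signal had no gene symbol. The probe set with the largest such difference read -0.45, -0.47 and -0.53 in stressed Y12-3 and 2.77, 2.75 and 2.25 in stressed A24-39. All Y12-3 arrays lay under the bound and all A24-39 arrays more than 2 units above it. The difference was -3.07 ± 0.16 (SE; limma adjusted p = 9.5e-06), which as a limit on signal is at least 2.75 units higher in A24-39, taking the bound of each Y12-3 array in place of the dim reading. It was A24-39-only in well-watered roots too, by -2.28. The one with the next largest behaved alike, with -0.56, -0.32 and -0.28 against 1.64, 1.65 and 1.26. The difference was -1.91 under either regime, and under stress at least 1.68 as a limit on signal. Both absences in Y12-3 were present with and without stress.

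Of the probe sets with a symbol, 8 were A24-39-only and 7 Y12-3-only. The annotation gives most symbols only as LOC numbers with no description, so no role is stated for them. LOC543277 read -0.28, -0.48 and -0.40 in Y12-3 and 1.21, 0.47 and 0.12 in A24-39, a difference of -0.99 ± 0.23 (SE; limma adjusted p = 0.024), at least 0.77 as a limit on signal. LOC100037526 read -0.49, -0.59 and -0.36 against 0.38, 0.10 and 0.70, a difference of -0.87 ± 0.12 (SE; limma adjusted p = 0.0017), at least 0.56 as a limit. LOC543018 read -0.57, -0.43 and -0.38 against 0.03, 0.56 and 0.65, also a difference of -0.87 and at least 0.58 as a limit. No Y12-3 array reached the bound for any of these, while the A24-39 arrays spread over more than 0.5 unit each. In well-watered roots LOC100037526 was under the bound on all 6 arrays, and LOC543018 was above it on 1 A24-39 array. The other probe set of LOC100037526 was under the bound on all 6 stressed arrays, at -0.04, and was not called.

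XTH, a xyloglucan endotransglucosylase/hydrolase that cuts and rejoins wall polymers during cell expansion, was the A24-39-only gene with a known role. It read -0.29, -0.27 and -0.25 in stressed Y12-3 and 0.90, 0.26 and 0.13 in stressed A24-39. The groups do not overlap, and the first A24-39 array carried the highest value. The difference was -0.70 ± 0.17 (SE; limma adjusted p = 0.028), at least 0.59 as a limit on signal. In well-watered roots XTH was detected on 2 of 3 Y12-3 and 3 of 3 A24-39 arrays, with means of 0.05 and 0.11. The change of this genotype difference with watering did not pass the test (limma interaction, adjusted p = 0.50). Without the first A24-39 array the difference was -0.46, still called. The call was lost without any single Y12-3 array (limma adjusted p = 0.078 to 0.081) and with the 6 stressed arrays alone (0.068).

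LOC542821 was A24-39-only under both regimes, at -0.45, -0.45 and -0.43 against 0.11, 0.21 and 0.00 in stressed roots, with a difference of -0.55 there and -0.69 in well-watered roots. As a limit on signal the stressed difference was at least 0.27. LOC780680 (-0.36) and LOC732708 (-0.31) were fainter still in A24-39, with means of 0.08 and 0.02 and limits of at least 0.24 and 0.18. Neither was called after rescaling to the hybridisation controls, at -0.20 and -0.15. LOC542771 showed that 1 symbol can give both patterns. One of its 4 probe sets was A24-39-only (-0.67 ± 0.10, SE; limma adjusted p = 0.0021) and another was Y12-3-only (0.22 ± 0.05, SE; limma adjusted p = 0.017). Its other probe sets, at -0.20 and 0.10, were above the bound on all 6 arrays and were not called. A one-genotype call is therefore a statement about a probe set and not about a gene. LOC543277 lost its call without any single Y12-3 array or the second A24-39 array (limma adjusted p = 0.056 to 0.080).

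The 2 largest Y12-3-only differences also had no symbol. The first read 1.12, 1.2 and 1.13 in Y12-3 and -0.32, -0.39 and -0.22 in A24-39, a difference of 1.46 ± 0.17 (SE; limma adjusted p = 0.00049). The second read 1.06, 1.1 and 0.93 against -0.44, -0.51 and -0.31, a difference of 1.45 ± 0.18 (SE; limma adjusted p = 0.00073). The limits on signal were at least 1.30 and 1.19. Both stood well clear of A24-39 in tight triplicates. They were also higher in well-watered Y12-3, by 1.34 and 1.19, where 1 of 3 A24-39 arrays was above its bound for each.

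Among Y12-3-only probe sets with a symbol, LOC778406 read 0.17, 0.72 and 0.32 against -0.31, -0.37 and -0.34, a difference of 0.74 ± 0.13 (SE; limma adjusted p = 0.0047), at least 0.56 as a limit on signal. LOC606321 read 0.29, 0.12 and 0.15 against -0.32, -0.32 and -0.27, a difference of 0.49 and at least 0.34 as a limit. LOC100037602 read 0.04, 0.38 and 0.13 against -0.26, -0.23 and -0.26, a difference of 0.43 and again at least 0.34. The detected readings were faint, and in well-watered roots all 3 were above the bound on 3 Y12-3 arrays and on 1 or 2 A24-39 arrays. LOC606373, LOC100037641 and LOC100125744 followed with 0.28, 0.28 and 0.20, or at least 0.17, 0.23 and 0.054 as limits. LOC100037641 and LOC100125744 were under the bound on all 6 well-watered arrays. Another probe set of LOC100037602 was above the bound on all 6 stressed arrays, with means of 1.07 in Y12-3 and 0.43 in A24-39, and was not called. Another of LOC606373 was also above it on all 6, with means of 0.26 and 0.07, and was called higher in Y12-3. The remaining probe sets of both symbols were not called. The calls of LOC100037602, LOC606373 and LOC100125744 were lost when single stressed arrays were left out: the second Y12-3 or any A24-39 array for LOC100037602 (limma adjusted p = 0.055 to 0.068), any but the first Y12-3 array for LOC606373 (0.057 to 0.146) and any array for LOC100125744 (0.084 to 0.128). LOC606373 was also lost after quantile normalization (0.063) and with a replicate block (0.069), as was LOC100125744 (0.094 and 0.061).

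**Figure D2:**
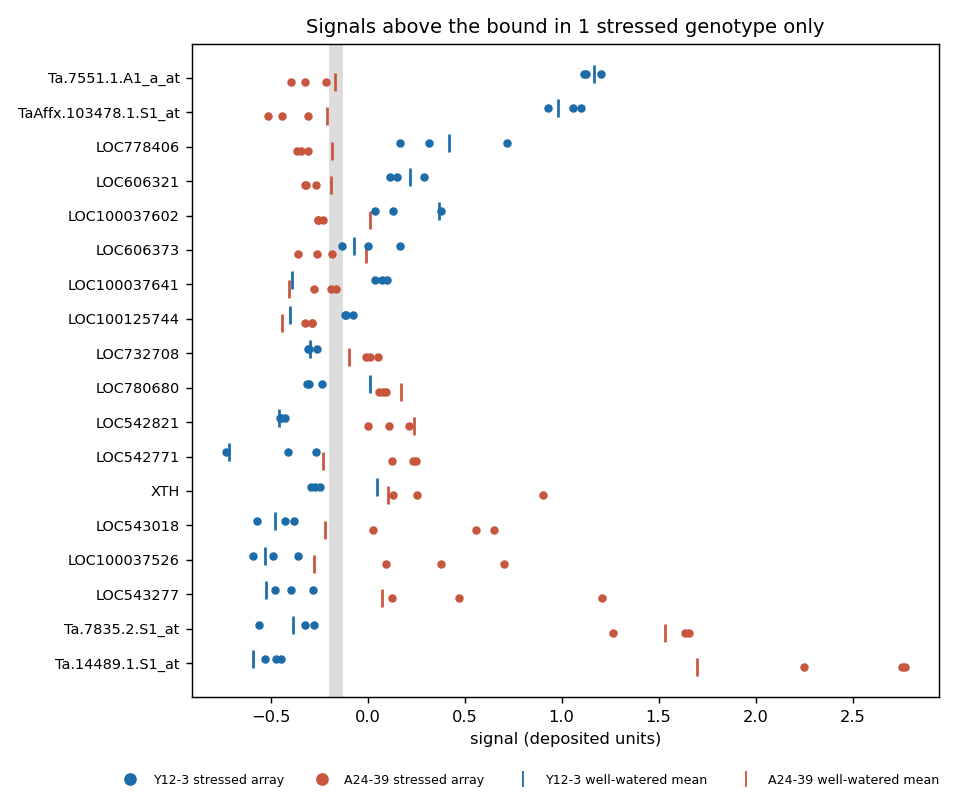
Signal (x axis, deposited log-like units) of the named probe sets that were above the bound in 1 stressed genotype only, ordered by Y12-3 minus A24-39. Dots are single stressed arrays (blue Y12-3, red A24-39), ticks are well-watered means of 3 arrays, and the grey band spans the bound on the stressed arrays, from -0.20 to -0.13; the probe set at the bottom has the widest gap, -3.07.

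Where both genotypes gave signal on all arrays, 1669 probe sets were higher in Y12-3 with a median size of 0.37 and 847 were lower with a median size of 0.43. The 2 probe sets furthest above A24-39 had no symbol. The higher of them read 3.21, 3.12 and 3.12 against 0.52, 0.33 and 1.40, a difference of 2.40 ± 0.43 (SE; limma adjusted p = 0.0063). The next read 3.73, 3.56 and 3.74 against 0.75, 0.98 and 2.45, a difference of 2.28 ± 0.59 (SE; limma adjusted p = 0.039). Both were tight in Y12-3, and the third A24-39 array was the highest of its group for both. The call of the second was lost without any single array except that one (limma adjusted p = 0.094 to 0.141) and with a replicate block (0.061).

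The 2 probe sets furthest below A24-39 had no symbol either. The lower of them read 0.39, 0.57 and 0.72 in Y12-3 and 3.62, 4.03 and 3.23 in A24-39, a difference of -3.07 ± 0.27 (SE; limma adjusted p = 9.8e-05). In well-watered roots its difference was -3.56. The next read 0.09, 0.72 and 1.27 against 3.15, 3.61 and 3.55, a difference of -2.74 ± 0.28 (SE; limma adjusted p = 0.00023). In well-watered roots its difference was -0.88 and was not called. The groups do not overlap for either probe set. The change of the second difference with watering did not pass the test (limma interaction, adjusted p = 0.17).

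Among symbols, the rise furthest from 0 was that of LOC100049018, at 3.52, 2.95 and 3.15 in Y12-3 against 2.20, 1.61 and 1.60, a difference of 1.40 ± 0.34 (SE; limma adjusted p = 0.029). Only 2 of the 28 probe sets of that symbol were called, both higher, and its call was lost without any single array except the first A24-39 one (limma adjusted p = 0.053 to 0.103). LOC606308 read 1.43, 1.16 and 1.35 against -0.13, -0.04 and 0.25, a difference of 1.29 ± 0.22 (SE; limma adjusted p = 0.0053). Both of its probe sets were called, and in well-watered roots the same difference was 2.82. LOC542869 read 1.18, 1.19 and 1.19 against 0.23, 0.12 and 0.42, a difference of 0.93, with both probe sets called and 0.80 in well-watered roots. LOC606308 and LOC542869 were thus called in both regimes, while LOC542814 (0.82), LOC780661 (0.59) and LOC542831 (0.56) had well-watered differences of 0.13, -0.01 and -0.14, not called. The other probe set of LOC542814 was not called (-0.13), nor were the other 5 of LOC780661 (0.06 to 0.21), so these directions are those of 1 probe set each.

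LOC543463 agreed over its probe sets. All 4 were called higher in Y12-3, and the one furthest from 0 read 2.17, 2.41 and 2.28 against 1.71, 1.79 and 1.5, a difference of 0.62 ± 0.11 (SE; limma adjusted p = 0.0051). LOC100037659 was split: one probe set was higher by 0.69 and another lower by 0.40 on the same arrays (-0.40 as Y12-3 minus A24-39), and both were called. Probe sets named _x_at can bind related transcripts, so which family member each reads is uncertain. LOC542831 lost its call without the first or the third Y12-3 or the first or second A24-39 array (limma adjusted p = 0.088 to 0.097). LOC542814 lost it without the third Y12-3 or the first or second A24-39 array (0.059 to 0.062).

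On the other side, LOC543472 read 1.12, 0.76 and 1.1 in Y12-3 against 2.42, 2.48 and 2.20 in A24-39, a difference of -1.37 ± 0.18 (SE; limma adjusted p = 0.0011), with both of its probe sets called. LOC543235 read 0.27, -0.11 and 0.13 against 1.59, 1.51 and 1.15, a difference of -1.32 ± 0.20 (SE; limma adjusted p = 0.0023). LOC780595 read 0.61, 0.53 and 0.35 against 2.72, 1.68 and 1.02, a difference of -1.31 ± 0.35 (SE; limma adjusted p = 0.044). The A24-39 arrays of LOC780595 were far apart, and without the first of them the difference was -0.85. Its call was lost without any single stressed array except the third A24-39 one (limma adjusted p = 0.079 to 0.134). LOC542799 read 3.75, 3.06 and 3.80 against 4.81, 4.40 and 5.01, a difference of -1.21 ± 0.20 (SE; limma adjusted p = 0.0036). In well-watered roots its means were -0.19 and -0.08, so this transcript was bright after stress in both genotypes. After quantile normalization its difference was -0.85 and after rescaling to the hybridisation controls -0.56, both called, and as deposited its second probe set (-0.62) was not called.

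LOC543230 read 2.36, 2.48 and 2.49 against 3.33, 3.35 and 3.29. The difference was -0.88 ± 0.07 (SE; limma adjusted p = 6.3e-05) in stressed and -0.95 in well-watered roots. LOC543407 was also lower in both, by -0.97 and -0.87, with both probe sets called. After rescaling to the hybridisation controls the stressed differences of LOC543230 and LOC543407 were -0.38 and -0.45, still called. LOC543252 (-0.86) and LOC542989 (-0.85) were lower in stressed roots and had well-watered differences of -0.41 and -0.51, not called. All 3 probe sets of LOC542989 were called lower in Y12-3, and the A24-39 readings of the one furthest from 0 were 1.18, 0.71 and 0.57.

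**Figure D3:**
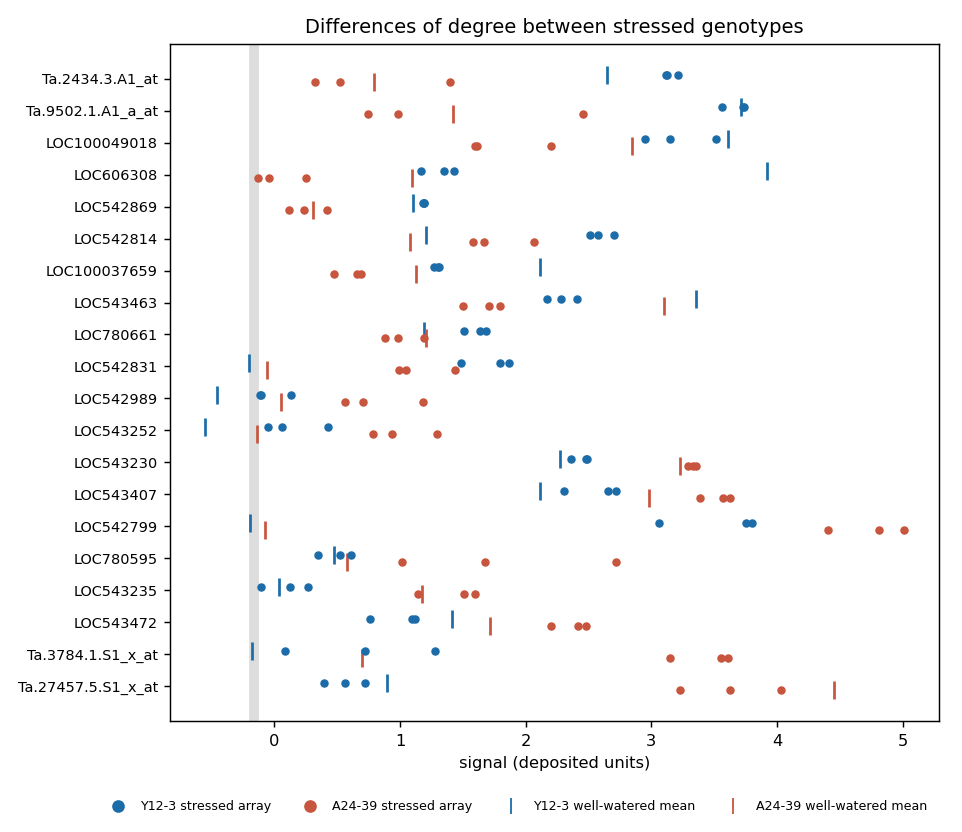
Signal (x axis, deposited log-like units) of the 16 named symbols that were above the bound on all 6 stressed arrays and differed in degree, ordered by Y12-3 minus A24-39. Dots are single stressed arrays (blue Y12-3, red A24-39), ticks are well-watered means of 3 arrays and the grey band spans the bound; LOC543472 has the largest fall, -1.37, and LOC100049018 the largest rise, 1.40.

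The remaining calls included a probe set without a symbol that is described here after its values were seen. It read -0.28, -0.48 and 0.10 in stressed Y12-3 and 3.94, 3.24 and 3.88 in stressed A24-39. One Y12-3 array lay above its bound, which kept it out of the A24-39-only class. The difference was -3.91 ± 0.18 (SE; limma adjusted p = 8.0e-06). This size is inexact, because 2 Y12-3 arrays gave only a reading under the bound. Both genotypes were under the bound in well-watered roots. Among the named probe sets above the bound on only some arrays, those of LOC542838 (0.63) and LOC542997 (0.43) were higher in Y12-3. Those of LOC542855 (-0.37), LOC780574 (-0.30), LOC780635 (-0.24) and LOC542837 (-0.22) were lower. These values are each of 1 probe set. The other probe sets of LOC780635 (0.12 and 0.18) and of LOC780574 (0.03, 0.00, -0.05 and -0.04) were not called. The brightest LOC542838 probe set, with means of 2.17 in Y12-3 and 2.33 in A24-39, differed by -0.16 and was not called. Its remaining probe set (0.24) and the other one of LOC542997 (0.47) were called. Some of these other probe sets were above the bound on all 6 stressed arrays, for each of these symbols. Without single stressed arrays the call was lost for LOC542997 in 4 of 6 cases (limma adjusted p = 0.088 to 0.113), for LOC780574 in 5 (0.077 to 0.106), for LOC780635 in 5 (0.077 to 0.116) and for LOC542837 in 1 (0.052). LOC542997 was lost after quantile normalization (0.073), and LOC542855, LOC780574, LOC780635 and LOC542837 after rescaling to the hybridisation controls (0.27 to 0.82). The 912 calls above the bound on no array had a median size of 0.17, and 631 of them were lower in Y12-3. They include PFK, phosphofructokinase of glycolysis, at -0.16 (limma adjusted p = 0.020), which was not called after quantile normalization (-0.10, adjusted p = 0.12), and LOC778380 at -0.23. PFK also lost its call without the first or second Y12-3 or the first or second A24-39 array (limma adjusted p = 0.054 to 0.085). Rescaling to the hybridisation controls ended both calls (0.84 and 0.74). The other probe set of LOC778380 was not called (-0.01).

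Of the 1273 probe sets with a symbol, 130 were called (10.2%), 58 higher and 72 lower in Y12-3. Only 19 had a symbol other than a LOC number. TUBA, alpha-tubulin of the microtubules, has 2 of them. The brighter read 3.83, 3.90 and 3.89 in Y12-3 and 4.65, 4.53 and 4.41 in A24-39. The groups do not overlap, and the difference was -0.66 ± 0.14 (SE; limma adjusted p = 0.014). This is a bright signal, and its difference was -0.23 after quantile normalization (adjusted p = 0.19) and -0.0048 after rescaling to the hybridisation controls. It was also lost without the first Y12-3 (adjusted p = 0.051) or the first A24-39 array (0.061). The other TUBA probe set was under the bound on all 6 arrays, at -0.11, and was not called.

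SAHH, S-adenosylhomocysteine hydrolase of the methylation cycle, was detected on all 6 arrays with differences that were not called, -0.61 (limma adjusted p = 0.056) and -0.60 (0.053) at its 2 probe sets. Both were called with the 6 stressed arrays alone (0.0014 and 0.0089) and with array weights (0.0036 and 0.0040), and the second with a replicate block (0.037). They were -0.14 and -0.27 after quantile normalization and 0.05 and 0.01 after rescaling to the hybridisation controls. TBP1 differed by -0.23 (adjusted p = 0.077) as deposited, by -0.30 after quantile normalization (0.0043) and by 0.08 after that rescaling. Its direction and call thus depended on the scaling. COR410, a wheat dehydrin that accumulates in cold and drought, read 0.09, 0.01 and 0.00 in Y12-3 and 0.17, 0.03 and 0.13 in A24-39. The groups overlap, and the difference of -0.08 was not called (adjusted p = 0.40).

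The other probe sets with descriptive symbols were dim or did not differ by the test. The thionins THI1.2 and TTHV, small antimicrobial proteins, were under the bound on all 6 stressed arrays, at 0.00 and -0.10. Of the 2 THI1.1 probe sets, one was above it on all 6 and differed by -0.05 in stressed and 0.60 in well-watered roots, where it was called. Catalase CAT1, fructose-bisphosphatase FBP, GAPN and petC of the cytochrome complex were not called at any of their probe sets. One FBP probe set was above the bound on 2 Y12-3 arrays and 1 A24-39 array. By list, 10 lists of drought, wall, defence, redox and shoot genes were searched by symbol and 5 had a match. Among dehydrins 0 of 1 probe set was called, and among tubulins and wall genes 0 were higher and 2 of 3 lower, with a median of -0.66. Among antioxidant genes 0 of 2, among defence proteins 0 of 3 and among shoot genes 0 of 4 were called. Of all probe sets tested, 8.47% were called and the median difference was -0.02. The shoot markers petC and FBP, which would show green tissue in a root sample, were above the bound on all 6 arrays at 0 of their 4 probe sets.

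Some probe sets share the start of their names, Ta or TaAffx, and the number after it, called a cluster here. Over all tested probe sets with another of their cluster on the array, 13.8% had at least 1 other called on the side of their own difference and 5.36% had one called on the opposite side. Among the A24-39-only calls, 118 had another probe set of the same cluster on the array, and for 64 of these (54.2%) at least 1 other was called in the same direction, for 11 in the opposite one. Among the Y12-3-only calls this was 125 of 260 (48.1%) with 13 opposite, and among the degree calls 749 of 1426 (52.5%) with 89 opposite. Of the other probe sets in these clusters, called or not, 76.0% shared the sign of the A24-39-only call, 54.4% that of the Y12-3-only call and 67.7% that of the degree call, against 64.4% over all tested. For 49 of the 118 (41.5%) and 112 of the 260 (43.1%), another of the cluster was above the bound on all 6 arrays. Where this held, signal absent from one genotype at one probe set was present in both genotypes at another. Over all tested probe sets with another of their cluster this share was 56.8%, so it was lower for the one-genotype calls. Names ending in _x_at or _a_at made up 18.8% and 12.8% of the degree calls, close to the 18.3% and 12% of all probe sets above the bound on all 6 arrays.

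Control probe sets for known wheat transcripts, which read different parts of 1 RNA, also differed between parts of a transcript. Sucrose synthase, which splits sucrose for use in sink tissues, read 2.85, 2.98 and 2.91 at its 3′ probe set in stressed Y12-3 against 3.31, 3.34 and 3.19 in A24-39, so it was lower by 0.37 (-0.37 as Y12-3 minus A24-39). At its middle probe set it read 1.66, 1.78 and 1.66 against 1.44, 1.33 and 1.28, which is higher by 0.35. At its 5′ probe set it was higher by 0.51, with 0.52, 0.62 and 0.49 against 0.14, -0.04 and -0.01. No groups overlap (exact two-sided permutation p = 0.1 for each, the smallest possible), and the direction depended on the part of the transcript. In well-watered roots the 3 differences were 0.01, 0.30 and 0.46. Glucose-6-phosphate dehydrogenase (G-6-PDH) was higher in Y12-3 by 0.47 at the 5′ and 0.46 at the middle probe set and overlapped at the 3′ one (0.08). Ubiquitin was lower by 0.26 at the 5′ (-0.26) and 0.35 at the middle probe set (-0.35) and overlapped at the 3′ one (-0.06).

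Of the 25 wheat control probe sets, 15 had groups that do not overlap, 10 higher and 5 lower in Y12-3, against 38.4% of the probe sets tested. Only 8 of the 15 were above the bound on all 6 stressed arrays, 5 higher and 3 lower. Several of the 25 read parts of the same transcript, so they are not independent and the 2 shares are not a test. The 3′ minus 5′ signal, a measure of how far the labelled RNA reaches, also differed between the stressed genotypes. For the dap spike-in, added as a poly-A RNA, it was 0.85 ± 0.04 in Y12-3 and 0.95 ± 0.06 in A24-39 (SD, n = 3 each; exact two-sided permutation p = 0.1, the smallest possible). For sucrose synthase it was 2.37 ± 0.05 and 3.25 ± 0.11 (SD, n = 3 each; exact p = 0.1). For GAPDH, an enzyme of glycolysis, it was -0.46 ± 0.06 and -0.29 ± 0.07 (SD, n = 3 each; exact p = 0.1). The 3′ GAPDH probe set was under the bound on every stressed array, with means of -0.32 in Y12-3 and -0.37 in A24-39. The GAPDH value therefore cannot show how far the labelled RNA reaches. For ubiquitin the 3′ minus 5′ signal was -1.15 ± 0.04 and -1.36 ± 0.06 (SD, n = 3 each; exact p = 0.1). With GAPDH set aside, it was lower in Y12-3 for the dap spike-in and sucrose synthase and higher for ubiquitin. The part of the 3′ minus 5′ values in the called differences was not tested. With the dap value as a covariate, an alternative added after the data were seen, 3937 probe sets were called.

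**Figure D4:**
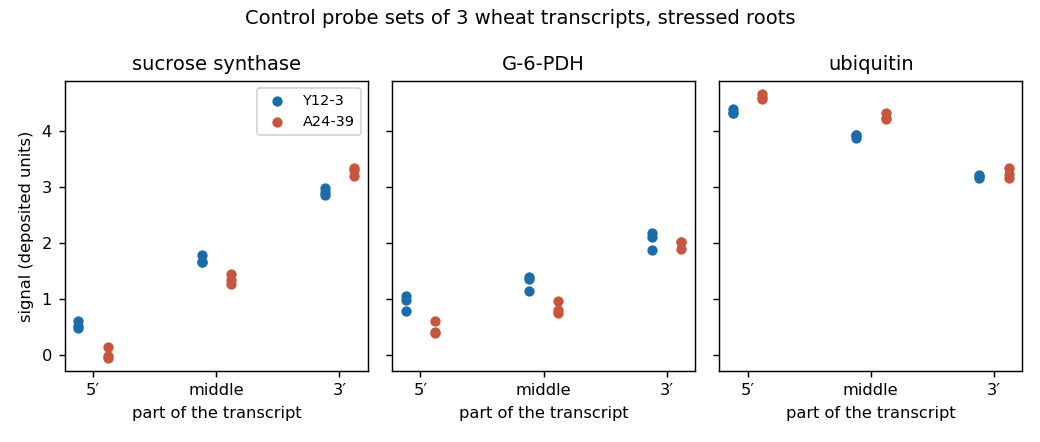
Signal (y axis, deposited log-like units) of the control probe sets for the 5′, middle and 3′ parts of sucrose synthase, G-6-PDH and ubiquitin on the 3 stressed Y12-3 (blue) and 3 stressed A24-39 (red) arrays. Sucrose synthase is higher in Y12-3 at the 5′ and middle parts and lower by 0.37 at the 3′ part.

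Well-watered roots asked which of these genotype differences were present without stress. Their arrays are different ones, although both comparisons take their spread from the same fit. In well-watered roots 3230 probe sets were called (5.28%). Of the 5180 calls in stressed roots, 2059 were called in the same direction without stress, which is 39.7% of the stressed and 63.7% of the well-watered calls. Another 4 were called in the opposite direction. A difference of the same sign, called or not, was present for 4717 (91.1%). No share of the same sign over all tested probe sets is set beside it or beside the shares of sign by class below. At the 2 highest steps of signal level, the median over all probe sets was below 0 in both regimes.

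By class, 261 of the 321 A24-39-only calls (81.3%), 328 of the 583 Y12-3-only calls (56.3%) and 842 of the 2516 degree calls (33.5%) were also called in the same direction in well-watered roots. Over all tested probe sets 5.28% were called in well-watered roots, in either direction. The sign was shared by 99.1%, 93.1% and 89.9% of the 3 classes. The classes also differed in the median size of the stressed difference (0.52, 0.40 and 0.39). The part of size in these shares was not tested. Of the A24-39-only calls 140 (43.6%) were again A24-39-only, and of the Y12-3-only calls 191 (32.8%) were again Y12-3-only. No call was restricted to one genotype under stress and to the other without it. In well-watered roots 25 of the A24-39-only and 53 of the Y12-3-only calls were above the bound in neither genotype.

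**Figure D5:**
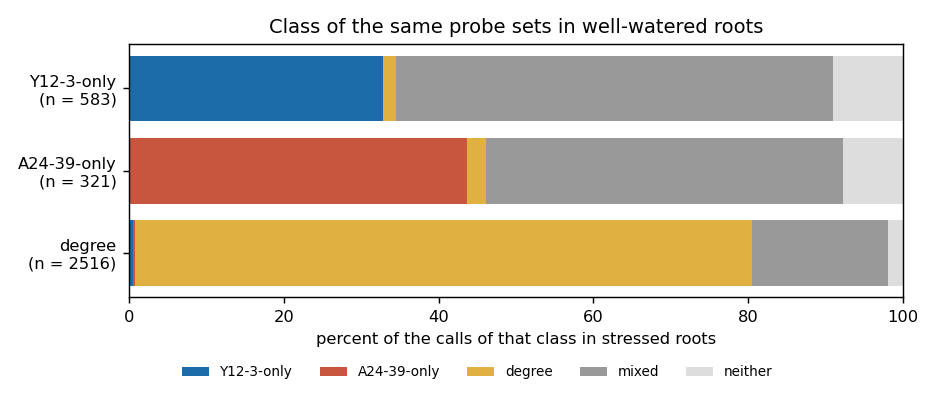
For the calls of 3 detection classes in stressed roots (rows, with their number), the share in percent (x axis) that fell into each class in well-watered roots. Of the A24-39-only calls 43.6% and of the Y12-3-only calls 32.8% kept their class, and 79.7% of the degree calls were again above the bound on all 6 arrays.

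Few genotype differences were shown to depend on watering. The interaction test passed at 52 of all probe sets (0.0850%; limma, adjusted p under 0.05), against 5095 at an unadjusted p under 0.05, and 20 of the 52 were among the 5180 calls. Leaving out the third well-watered Y12-3 array raised this to 532 of those calls, and a block on replicate number within each regime gave 102. It was 8, 10 and 18 without the first, the second and the third stressed A24-39 array, and 12, 19 and 10 without the first, the second and the third stressed Y12-3 array.

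The following 4 of these, none with a symbol and all described after their values were seen, show the forms this took. One read 1.41, 1.35 and 1.36 in stressed Y12-3 and 0.02, -0.10 and 0.09 in stressed A24-39, a difference of 1.37 ± 0.05 (SE; limma interaction, adjusted p = 0.00020), against 0.16 in well-watered roots, where all 6 arrays were under the bound. Another was Y12-3-only at 1.24, 0.69 and 1.01 against -0.34, -0.40 and -0.20, with a difference of 1.29 under stress and 0.15 without it (interaction adjusted p = 0.034). A further one was A24-39-only at -0.48, -0.39 and -0.30 against 0.17, 0.29 and 0.31, with differences of -0.64 and 0.01 (interaction adjusted p = 0.013). All 3 signals were detected only after stress and in one genotype more than in the other. The last turned around: stressed Y12-3 was lower by 0.50 (-0.50, with 1.64, 1.57 and 1.74 against 2.09, 2.23 and 2.11), and well-watered Y12-3 was higher by 0.26 (interaction adjusted p = 0.0093).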

How the data were processed

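Total RNA from roots was labelled and hybridised to Affymetrix wheat arrays. The deposited values are a score, 1 number per probe set and array, made by the authors with RMA per the submitters' processing notes; the sources used here give no version, log base or centring. The planned tests had assumed log2 values, and the scores were used as deposited.

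Y12-3 minus A24-39 in stressed roots was fitted with limma 3.58.1 in R 4.3.3 (lmFit, eBayes) as 4 group means over all 12 arrays (8 residual degrees of freedom), after a test on simulated data. Benjamini-Hochberg adjustment covered 61179 probe sets. Left out were 111 control probe sets, and single measures per array were tested by exact permutation. The number of arrays limits the precision. The members and lists were chosen with earlier results of these data known.

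Named genes were taken per class from calls with non-overlapping arrays and 1 symbol, the 8 highest and 8 lowest, 1 probe set per gene. The 2 highest and 2 lowest without a symbol in the one-genotype and degree classes, every symbol other than a LOC number, list members and wheat controls were added. Identifiers could not be matched to the RefSeq table, and sequences were not used here.

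Deviations of same-numbered stressed arrays correlated across genotypes at r = 0.17, 0.57 and 0.54, and those of other pairs at -0.51 to 0.17. The first pair was thus no higher than 1 unmatched pair. In well-watered roots same-numbered pairs had r = 0.24, 0.28 and 0.20, and other pairs -0.19 to -0.02. The numbers may therefore pair the arrays, though not clearly for the first stressed pair. The fit reported has no block, so its p-values take no account of such a pairing. The blocked fits were run beside it. Alternatives changed the block, scaling, detection bound, filter, array weights, variance trend and the arrays used.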

Additional observations from a re-analysis of the deposited data

Results flagged for a closer look

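Among the 5180 differences called between stressed genotypes, 20 also changed with watering by a test of the change itself (limma interaction, adjusted p under 0.05). By class, 9 were differences of degree, 6 were Y12-3-only, 2 were A24-39-only, 1 was detected on some arrays of a genotype and 2 on no array.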

How the results depend on the processing

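The count of 5180 calls was 5287 with a replicate block and 5342 with the replicate block within each watering regime, where 4061 of the 5180 were kept. These blocks moved only the interaction count by over 1.5 times, from 20 to 102. Named calls they ended are LOC606373, LOC100125744, LOC780635 and 1 probe set without a symbol, while 1 SAHH probe set became called. Leaving out 1 stressed array gave 2984 to 4138 calls, 1702 to 2478 higher and 1258 to 1660 lower in Y12-3, 853 to 1359 degree calls higher and 526 to 696 lower, and 8 to 19 past the interaction test. With the 6 stressed arrays alone there were 4712 higher calls, 2814 higher in degree and 1138 shared with well-watered roots. Array weights gave 12280 calls (6447 higher, 5833 lower; 3767 and 1630 in degree; 703 past the interaction test). Rescaling to the hybridisation controls gave 9754 (9275 higher, 479 lower; 171 A24-39-only; 7630 and 230 in degree; 1228 shared; 960 past the interaction test). The intensity trend put 70 past the interaction test. A24-39-only calls were 210 by the second brightest control and 154 by the controls' median plus 3 MAD, and Y12-3-only calls 890 by group means. Calls of at least 1 unit were 365 (185 higher, 180 lower). Without the third well-watered Y12-3 array, added after seeing the data, there were 7387 calls, 4567 higher and 2820 lower, with 2528 and 1110 in degree and 532 past the interaction test. The causes were not tested.

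Of 49 named calls, 27 held in every setting run and 22 were lost in at least 1; of 16 not called, 5 were called in at least 1. The sign changed only for values not called. One CAT1 probe set ranged from -0.031 to 0.025 without single arrays and became 0.021 by quantile normalization, 0.016 with array weights and 0.018 with the dap covariate. Without single arrays THI1.2 ranged from -0.018 to 0.037 and one FBP probe set from -0.0076 to 0.045. By quantile normalization the other FBP probe set became -0.0053 and the other CAT1 one 0.011. With that rescaling SAHH became 0.053 and 0.013, TBP1 0.081, COR410 0.10, TTHV 0.0084, THI1.1 0.13, CAT1 0.12 and 0.094, GAPN 0.081, the dim TUBA probe set 0.0076 and petC 0.068 and 0.013. Signals near the bound limit the one-genotype classes.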
